A study of Zea mays with 6 samples.

Results

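Of the 39656 maize genes in the deposited table, 43 are described here as specific to the adaxial side of young leaf primordia among the 3 regions sampled. A gene was taken into this set when the lower of its 2 adaxial libraries reached at least 5 RPM, the reads of a gene scaled to the sequencing depth of its library, and at least 3 times the highest of the 4 other libraries. In all, 44 genes met both thresholds, and 1 of them was among 5 gene IDs set aside by name, so that 43 were described, 0.239% of the 17993 genes counted as expressed (mean RPM of 2 or more in one of the regions). The adaxial levels and their ratios to the other regions therefore chose the genes and are given as a description, with no test.

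The libraries were made from laser-microdissected cells of 14-d-old seedlings of the wild-type inbred B73, cut in sections of 8 µm, with no mutant or treated plants in these groups. There were 2 libraries of the adaxial side of primordia P2 and P3, 2 of the center zone at the shoot apex, and 2 of the abaxial side of the same primordia. P2 and P3, primordia of successive age, were captured together, so each leaf library mixes them along with whatever cell layers the cut held. The methods name the replicates as biological, each captured from several apices, and p-values measure the spread between these libraries. Counted reads were 23568329 and 25898155 in the adaxial libraries, 23116290 and 21970034 in the center zone libraries, and 14718269 and 15453375 in the abaxial libraries. RPM were not divided by gene length, since the amplified RNA comes from the 3′ ends of transcripts. Where genes are ordered by level here, the order is that of RPM and is not read as amounts of transcript.

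A leaf primordium arises on the flank of the meristem and soon acquires an adaxial side, which faces the meristem, and an abaxial side, which faces away. The adaxial side is specified by class III homeodomain leucine zipper (HD-ZIP III) transcription factors and, in Arabidopsis, by the LOB-domain protein AS2, while KANADI and certain auxin response factors act on the abaxial side. The boundary between the sides is needed for the blade to grow out flat.

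The library labels were first set against marker genes. The abaxial markers kan1, kan3, mwp1 and ARF11 together had 22.8 and 19.9 RPM in adaxial cells, 45.4 and 61.4 RPM in the center zone libraries and 215.2 and 213.4 RPM in the abaxial libraries. The 9 knotted-like meristem markers summed to 35.9 and 29.8 RPM in the adaxial libraries, against 1424.5 and 1210.9 RPM in the center zone and 34.2 and 29.1 RPM in the abaxial libraries. Both sets thus follow the labels, whereas of the 4 adaxial markers ial1, itself one of the 43 genes, and rld1 had both adaxial libraries above all the others. For the HD-ZIP III gene rld1 the margin was small, as it had 475.1 and 470.6 RPM in adaxial cells, 349.2 and 444.1 RPM in the center zone and 384.0 and 374.9 RPM in the abaxial libraries. The other 2 adaxial markers were not highest in the adaxial libraries. The HD-ZIP III gene rld2 stood at 276.5 and 177.4 RPM in adaxial cells, below 323.7 and 461.5 RPM in the center zone and above 102.6 and 88.6 RPM in abaxial cells. The MYB gene rs2 stood at 49.5 and 88.6 RPM in adaxial cells, 26.9 and 16.3 RPM in the center zone and 94.2 and 88.3 RPM in abaxial cells. Apart from ial1, which the choice of genes fixed, rld1 thus set the adaxial side above both other regions, by a small margin. The gene rld2 set it above the abaxial side only, and rs2 above the center zone only. The label rests mainly on the low abaxial markers. The ligule genes lg1 and BAD1 were at 0 to 0.1 RPM in every library, while lg2 had 13.4 and 10.3 RPM in adaxial cells, 4.2 and 6.4 RPM in the center zone and 2.3 and 2.6 RPM in the abaxial libraries. The boundary gene CUC2, at 353.9 and 277.1 RPM in the center zone, had 11.5 and 20.1 RPM in adaxial cells, against 1.4 and 0.8 RPM in abaxial cells. The part of such boundary cells in the levels of the 43 genes was not tested.

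**Figure D1:**
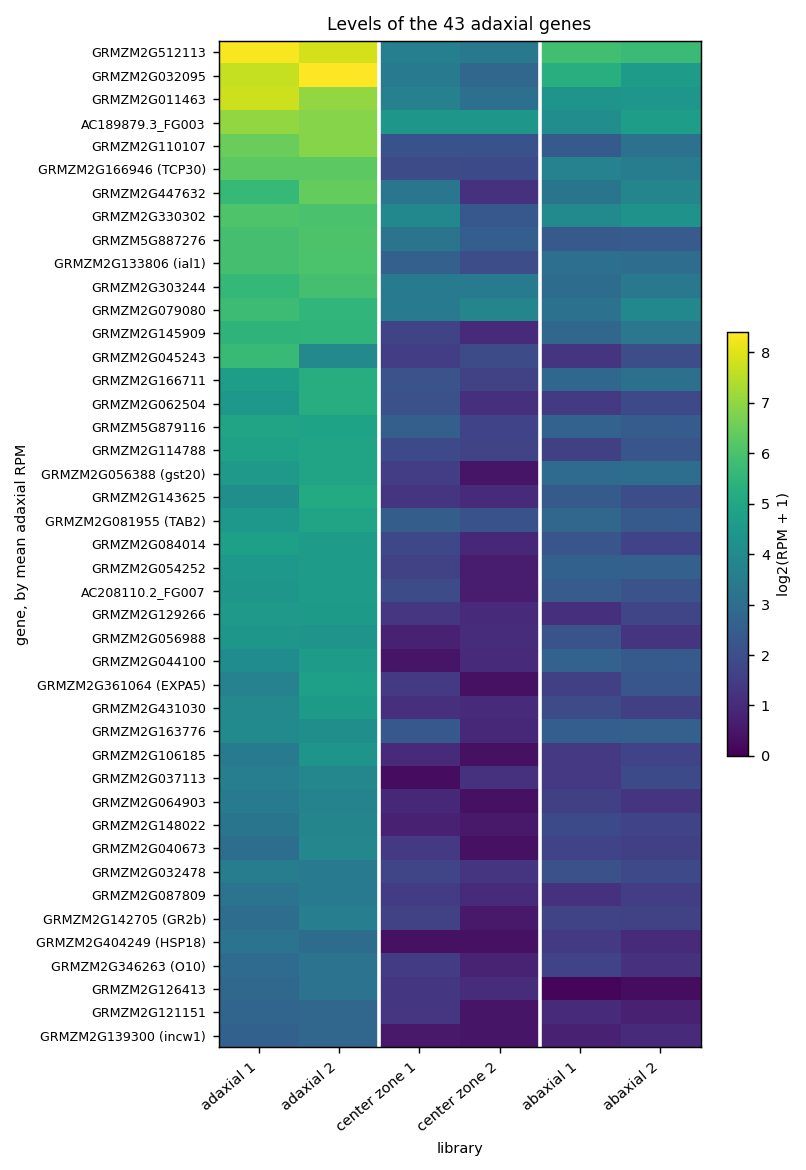
Levels of the 43 adaxial genes, one row per gene ordered by mean adaxial RPM, in the 2 adaxial, 2 center zone and 2 abaxial libraries, coloured by log2(RPM + 1). Every row is brightest in both adaxial columns, as the choice of the genes requires, and many rows are darker in the center zone than in the abaxial columns.

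The genes covered a wide range of levels. The lower adaxial library held at least 100 RPM for 4 genes, 20 to under 100 RPM for 19, 10 to under 20 RPM for 10, and under 10 RPM for the remaining 10. The ratio of that library to the highest other library ran from 3.02 to 11.6 with a median of 4.26, was at least 5 for 14 genes and lay under 3.5 for 12. Together the 43 genes took 1893 and 2006.2 RPM in the adaxial libraries, 175.5 and 117.7 RPM in the center zone libraries and 290.9 and 301 RPM in the abaxial libraries. The 4 highest genes carried 45.7% and 40.5% of the adaxial sums. The smallest count of any of the 43 genes in an adaxial library was 126 reads, and no gene had a count of 0 in any library. The error from counting reads alone is thus small on the adaxial side. Reads of amplified RNA are not independent, however, and the adaxial libraries of single genes differed by up to 3.42-fold. A low RPM in a region can mean fewer cells of a type or less RNA per cell, which cannot be told apart in these bulk libraries.

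Only 9 of the 43 genes carry a gene symbol in the RefSeq gene table, and 31 have an entry there. Among transcription factors there were TCP30 and ial1. TCP30 (GRMZM2G166946, chr3:194884444-194887065, plus strand, B73 RefGen_V3 as for all positions here) belongs to the TCP family, plant-specific factors that act on cell proliferation and growth in leaves and meristems. It had 77.5 and 77.5 RPM in adaxial cells, 2.9 and 2.7 RPM in the center zone and 12.3 and 10.7 RPM in the abaxial libraries, so the 3 regions did not overlap and the center zone was lowest. Its fitted log2 fold change was 2.80 ± 0.20 (SE) over the abaxial side and 4.93 ± 0.22 over the center zone. TCP30 was chosen on these differences, so the values are a description.

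The gene ial1, also named LOB31 (GRMZM2G133806, chr8:164624590-164627742, minus strand), encodes a LOB-domain protein, the family of the Arabidopsis adaxial factor AS2. It stood at 59.0 and 63.5 RPM in the adaxial libraries, 5.0 and 3.0 RPM in the center zone and 7.4 and 7.0 RPM in the abaxial libraries. The adaxial libraries differed little from each other, and the abaxial ones lay just above those of the center zone. The fitted log2 fold changes, a description as for TCP30, were 3.14 ± 0.28 (SE) over the abaxial side and 4.10 ± 0.29 over the center zone.

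Enzymes and wall proteins formed a further group. EXPA5 (GRMZM2G361064, chr6:154130608-154132782, minus strand) is named as an expansin, a protein that loosens the cell wall during growth. It had 12.3 and 26.0 RPM in adaxial cells, 1.7 and 0.3 RPM in the center zone and 2.0 and 3.7 RPM in the abaxial libraries. The adaxial libraries of EXPA5 were more than 2-fold apart, which held for only 1 other of the 43 genes, GRMZM2G045243, with 49.9 and 14.6 RPM on that side. The cell wall invertase gene incw1 (GRMZM2G139300, chr5:169454598-169459090, plus strand), whose enzyme splits sucrose outside the cell, was the lowest gene of the set with 5.1 and 5.9 RPM in the adaxial libraries, 0.5 and 0.4 RPM in the center zone and 0.7 and 1.0 RPM in the abaxial libraries.

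The glutathione S-transferase gene gst20 (GRMZM2G056388, chr3:206844204-206845235, plus strand), of a family that couples glutathione to small molecules, had 22.5 and 28.6 RPM in adaxial cells, 1.9 and 0.4 RPM in the center zone and 6.7 and 7.2 RPM in the abaxial libraries. Its abaxial level lay nearly as high as the choice of genes allowed, with a ratio of 3.13. TAB2 (GRMZM2G081955, chr5:183483530-183485782, plus strand), which shares its name with a Chlamydomonas factor for the translation of a photosystem mRNA, had 21.5 and 28.8 RPM in the adaxial libraries. In the center zone TAB2 had 4.6 and 3.3 RPM and in the abaxial libraries 5.9 and 4.2 RPM, and these regions overlapped.

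The heat shock gene HSP18 (GRMZM2G404249, chr9:132550417-132551258, plus strand), of the small chaperones that hold unfolded proteins, had 8.1 and 6.9 RPM in adaxial cells, 0.3 and 0.3 RPM in the center zone and 1.7 and 1.0 RPM in the abaxial libraries. Opaque10 (GRMZM2G346263, chr1:264953283-264960056, minus strand), known in maize for the ordering of storage proteins in endosperm protein bodies, had 6.7 and 8.2 RPM in adaxial cells, 1.8 and 0.8 RPM in the center zone and 2.2 and 1.3 RPM in the abaxial libraries. GR2b (GRMZM2G142705, chr8:139450959-139452582, minus strand) had 7.0 and 11.1 RPM in adaxial cells, 2.1 and 0.5 RPM in the center zone and 2.3 and 2.1 RPM in the abaxial libraries. These low genes sit near the edge of the set, Opaque10 with a ratio of 3.05 and GR2b with 3.04, and in both the center zone and abaxial libraries overlapped.

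**Figure D2:**
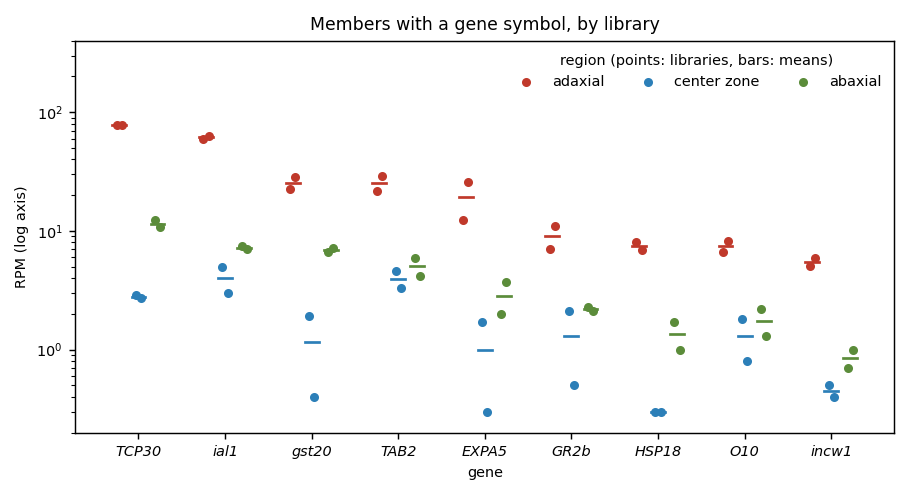
RPM on a log axis of the 9 adaxial genes with a symbol (O10 is Opaque10), where points are single libraries and bars the means of 2, for the adaxial side, the center zone and the abaxial side from left to right. TCP30, at 77.5 RPM in both adaxial libraries, and HSP18, at 0.3 RPM in both center zone libraries, have closely matching libraries there, while EXPA5 spreads from 12.3 to 26.0 RPM on the adaxial side.

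Most of the highest genes have no symbol. GRMZM2G512113 (chr5:183516837-183517601, plus strand) had 318.5 and 230.5 RPM in adaxial cells, 11.3 and 9.4 RPM in the center zone and 57.1 and 51.6 RPM in the abaxial libraries. GRMZM2G032095 (chr7:96710993-96712916, minus strand) had 201.4 and 335.8 RPM in adaxial cells, 10.3 and 5.8 RPM in the center zone and 37.8 and 24.2 RPM in the abaxial libraries. In both genes the 3 regions formed separate steps, with the abaxial side between the other two. GRMZM2G011463 (chr7:120711575-120712540, plus strand) had the same order at 214.6 and 131.1 RPM in the adaxial libraries, 11.7 and 7.6 RPM in the center zone and 19.2 and 20.4 RPM in the abaxial libraries. AC189879.3_FG003 (chr9:86402098-86407999, plus strand) had 131.2 and 114.9 RPM in adaxial cells, 20.7 and 20.6 RPM in the center zone and 16.5 and 24.6 RPM in the abaxial libraries, which overlapped. The order of the lower regions was thus not shared by all of the highest genes.

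GRMZM2G110107 (chr2:185690953-185695004, minus strand) had the largest ratio of the set, 11.6, and was the only gene past 10. It stood at 89.0 and 116.4 RPM in the adaxial libraries, 3.3 and 3.3 RPM in the center zone and 4.2 and 7.7 RPM in the abaxial libraries. GRMZM2G129266 followed with a ratio of 9.0, from 21.6 and 22.9 RPM in the adaxial libraries, 1.5 and 1.0 RPM in the center zone and 1.2 and 2.4 RPM in the abaxial libraries. After ial1, the next ratios were 7.30 for GRMZM2G114788, 7.20 for GRMZM5G887276, 6.59 for GRMZM2G062504, 6.44 for GRMZM2G084014, 6.43 for GRMZM2G011463, 6.30 for TCP30 and 5.65 for GRMZM2G056988. GRMZM5G887276 (chr1:6531690-6536885, minus strand), with 59.8 and 65.4 RPM in the adaxial libraries, was one of the few genes lower on the abaxial side than in the center zone, at 8.3 and 4.7 RPM in the center zone and 4.1 and 4.3 RPM in the abaxial libraries. The other high genes, GRMZM2G447632 and GRMZM2G330302, had low ratios of 3.67 and 3.38.

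The thresholds cut through a continuous range. Just inside the ratio was GRMZM2G163776 at 3.02, with 14.8 and 17.1 RPM in the adaxial libraries, 4.0 and 0.9 RPM in the center zone and 4.7 and 4.9 RPM in the abaxial libraries. Just outside was the YABBY gene yab9, of a family active in young leaf primordia, at 2.95 with 59.6 and 82.0 RPM in the adaxial libraries, 0.9 and 1.9 RPM in the center zone and 20.2 and 19.5 RPM in the abaxial libraries. GRMZM2G041694, GRMZM2G009019, GRMZM2G001514 and GRMZM2G335419 followed at ratios of 2.93, 2.91, 2.89 and 2.81. By level, incw1, GRMZM2G121151 and GRMZM2G126413 lay lowest inside with 5.1, 5.6 and 6.0 RPM in the lower adaxial library, and GRMZM2G430390, Hm2 and GRMZM2G031317 lay highest outside with 4.8, 4.7 and 4.5 RPM. Leaving out center zone replicate 1 raised the number of genes to 68, and leaving out adaxial replicate 1 raised it to 105.

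**Figure D3:**
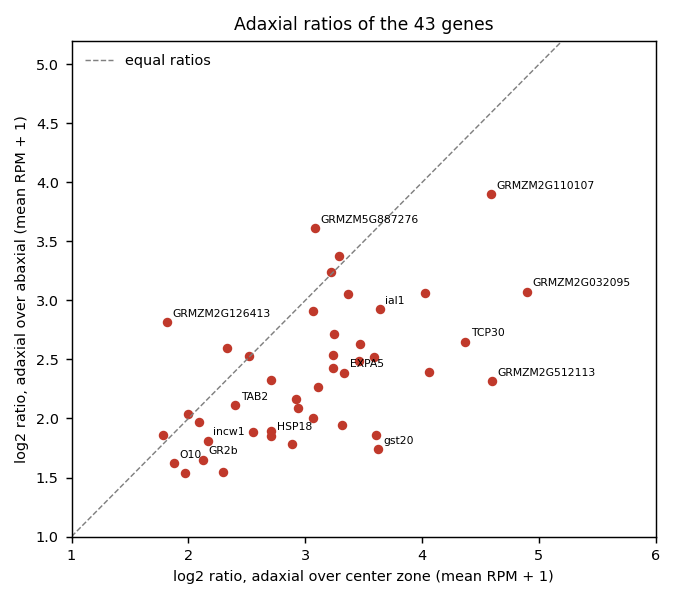
Log2 ratio of the adaxial mean over the abaxial mean against the log2 ratio of the adaxial mean over the center zone mean, each mean with 1 RPM added, for the 43 genes (points). The dashed line marks equal ratios, and 35 points lie below it, with a larger ratio over the center zone than over the abaxial side.

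Most genes stood further above the center zone than above the abaxial side. On the log2 scale of mean RPM with 1 RPM added, which understates the ratios of low genes, the median was 2.33 over the abaxial side, with a range of 1.54 to 3.90, where all expressed genes had a median of -0.04. Over the center zone the median was 3.08, with a range of 1.78 to 4.90, beside -0.18 for all expressed genes. The ratio over the center zone was the larger in 35 genes, and the ratio over the abaxial side in 8. The highest of the 4 other libraries was an abaxial one in 38 genes and a center zone one in 5. In GRMZM2G303244, one of these 5, both center zone libraries tied at 9.8 RPM, and in the others it was replicate 1.

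The choice of genes treated the center zone and the abaxial side alike, so their difference from each other was tested, as a question of where these genes are next expressed. In edgeR's quasi-likelihood fit over all 17993 expressed genes, 4 of the 43 passed a Benjamini-Hochberg adjusted p under 0.01, where 10.6% of all genes were called. Each was lower in the center zone, as were 4.42% of all genes, and 0 were called higher, beside 6.22%. At an unadjusted p under 0.05 there were 19 of the 43 beside 42.8% of all genes, DESeq2 called 13 beside 26.9%, and limma-trend called 2 beside 10.9%. In either direction, the share of the 43 genes called was thus near or under that of all genes. The choice of genes kept both regions low, with a center zone mean under 2 RPM in 24 of the 43, and low levels limit the calls. Nothing is therefore read from these shares, and the direction of the differences is given here as a description.

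Of the 43 genes, 9 reached the minimum of 2 RPM through the adaxial side alone, and 34 reached it in the center zone or the abaxial side. Among 17759 genes that reached it there, these 34 again had 4 calls, beside 10.8% of all genes, and 15 at an unadjusted p under 0.05, beside 43.2%. The fitted fold change was below 0, lower in the center zone, in 31 of the 34, beside 48.4% of all genes, with a median log2 of -1.20 beside 0.03. Both abaxial libraries lay above both center zone libraries in 22 of the 34, beside 30.9%, and both center zone libraries above both abaxial ones in 2, beside 42.6%. All of the 34 reached the minimum on the abaxial side, and part of them had a center zone mean under 2 RPM. That part passed only through the region where it was higher, so the direction among the 34 was partly fixed by the minimum. Over the 43 genes, the fold change was below 0 in 38 and above 0 in 5, both abaxial libraries were higher in 26, beside 31%, both center zone libraries in 3, beside 42.1%, and the regions overlapped in 14. Markers of the leaf and of its surface were lower in the center zone as well. The epidermis markers summed to 314.4 and 291.8 RPM in the center zone and 1634.3 and 1377.6 RPM on the abaxial side, all 4 tested of 5 called lower, and gl1 was at 0 in the center zone libraries and at 0.3 and 0.4 RPM in the abaxial ones. Their sum on the adaxial side was 1347.3 and 1246.6 RPM. Of the 6 YABBY leaf primordium markers 3 were called lower in the center zone, and the part of these cell types in the direction of the 43 genes was not tested.

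GRMZM2G512113 had a log2 fold change of -2.51 ± 0.21 (SE, edgeR adjusted p = 0.000622) between center zone and abaxial side. For TCP30 it was -2.12 ± 0.20 (edgeR adjusted p = 0.0011). The call for GRMZM2G512113 held under every alternative that was run, and that for TCP30 was lost only without abaxial replicate 1 (log2 -2.00, edgeR adjusted p = 0.0127). GRMZM2G145909 (chr10:50581408-50583416, minus strand), with 42.6 and 44.0 RPM in the adaxial libraries, 2.3 and 1.0 RPM in the center zone and 5.8 and 9.1 RPM in the abaxial libraries, had -2.27 ± 0.41 (edgeR adjusted p = 0.00843). GRMZM2G044100 (chr10:144956388-144959180, plus strand), with 16.0 and 23.4 RPM in the adaxial libraries, 0.4 and 1.0 RPM in the center zone and 5.2 and 4.2 RPM in the abaxial libraries, had -2.77 ± 0.50 (edgeR adjusted p = 0.0085). These last calls are less firm, since that for GRMZM2G145909 was lost in 9 and that for GRMZM2G044100 in 8 of the 17 alternatives. The number of the 43 genes called, and the share of all genes called, changed when single libraries were left out. The number was 13 without center zone replicate 1 (19.5% of all genes), 2 without adaxial replicate 1 (6.64%), adaxial replicate 2 (6.63%) or abaxial replicate 2 (1.67%), and 1 without abaxial replicate 1 (1.2%).

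**Figure D4:**
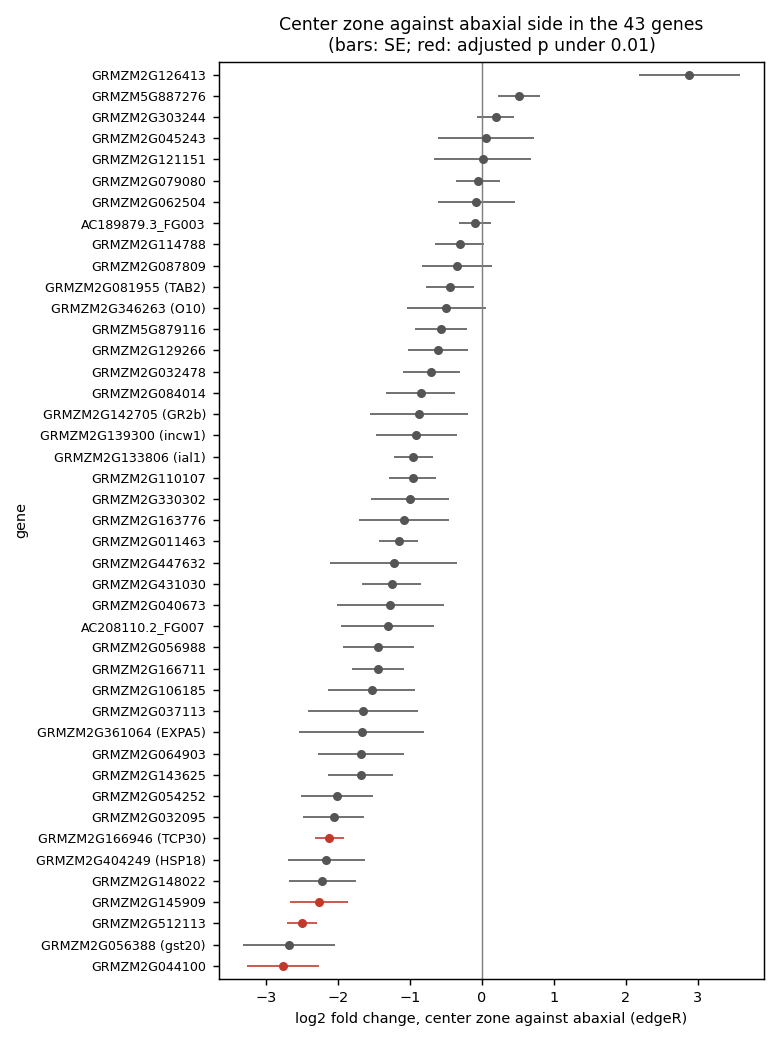
Log2 fold change of the center zone against the abaxial side for the 43 genes, from edgeR, with bars of 1 SE and the 4 genes with an adjusted p under 0.01 in red. Points left of 0 are lower in the center zone, 38 of 43, and GRMZM2G126413 stands alone on the far right at 2.88.

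The gene furthest in the other direction was GRMZM2G126413 (chr7:100523345-100525002, plus strand). It had 6.0 and 8.2 RPM in adaxial cells, 1.5 and 1.1 RPM in the center zone and 0.1 and 0.2 RPM in the abaxial libraries, the last from 1 and 4 reads. Its log2 fold change of 2.88 ± 0.70 between center zone and abaxial side missed the threshold (edgeR adjusted p = 0.0219) and rests on these few reads. GRMZM5G887276 and GRMZM2G303244 were the other genes with both center zone libraries above both abaxial ones. GRMZM2G303244, with 46.9 and 59.7 RPM in the adaxial libraries, 9.8 and 9.8 RPM in the center zone and 6.8 and 9.2 RPM in the abaxial libraries, overlaps GRMZM2G004131 on the opposite strand by 141 bp. Whether the counting used strand is not given in the sources used here, so reads of this overlap could belong to either gene.

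The replicates of the center zone and of the abaxial side differed for these genes more than for genes at large. The median absolute log2 difference was 0.55 beside 0.30 in the center zone and 0.32 beside 0.17 on the abaxial side. On the adaxial side it was 0.31 beside 0.32. Both other regions are low by the choice of genes, and the part of low levels in these differences was not tested. Center zone replicate 1 was above replicate 2 in 35 of the 43 genes, 81.4%, beside 54.6% of all expressed genes, and the median log2 difference of replicate 1 over replicate 2 was 0.51 beside 0.05. For example, GRMZM2G447632 had 8.8 and 1.3 RPM there and GRMZM2G330302 had 14.2 and 4.0 RPM, while the abaxial libraries held 8.7 and 13.1 RPM for GRMZM2G447632 and 14.9 and 18.6 RPM for GRMZM2G330302. The 6 YABBY leaf primordium markers summed to 557.0 and 564.3 RPM in the adaxial libraries, 88.7 and 21.9 RPM in the center zone libraries and 469.6 and 491.7 RPM in the abaxial libraries, and 4 of the 6 were higher in center zone replicate 1, yabby15 with 78.8 and 16.3 RPM. The 5 vasculature markers, of which 1 was expressed highly enough to be tested, summed to 15.5 and 4.0 RPM in the adaxial libraries, 29.0 and 1.9 RPM in the center zone libraries and 5.6 and 6.9 RPM in the abaxial libraries. Of these, 4 were higher in center zone replicate 1, where DOF22, with 24.7 and 0.8 RPM, made up most of the sum. DOF10 was at 1.3 and 0 RPM, and DOF36, at 0.4 and 0.8 RPM, was higher in replicate 2. The part of leaf or vascular RNA in the difference between the center zone libraries was not tested. Within the adaxial side, replicate 2 was above replicate 1 in 31 of the 43 genes, 72.1%, beside 40.4% of all expressed genes. Within the abaxial side this held for 22 of the 43, 51.2%, beside 52.3%.

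The families of the named genes were set beside the 43 genes by list, where 0.239% of all expressed genes belong to the set. It held 1 of 3 tested LOB-domain genes (ial1), 1 of 7 tested TCP genes (TCP30) and 1 of 14 tested cell wall genes (EXPA5). Of other families, it held 0 of 3 tested HD-ZIP III and ta-siRNA genes, 0 of 11 NAC, 0 of 39 auxin, 0 of 19 GRF and GIF, 0 of 27 bHLH, 0 of 33 MYB, 0 of 3 lipid and cuticle and 0 of 10 cell cycle genes. With so small a set and lists of this size, nothing is read from a count of 0 or 1.

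The remaining list genes are those left once the 43 genes, with ial1, TCP30 and EXPA5, were taken out. That removal was made on the adaxial contrasts, so a lack of calls higher on the adaxial side among the rest of the LOB-domain, TCP and cell wall genes was partly fixed. The shares of all genes given beside them still include the 43 genes. Between adaxial and abaxial side, where edgeR called 0.0723% of all genes in either direction, 0.05% higher and 0.0222% lower on the adaxial side, none of the 6 other tested TCP genes passed, with 1 at an unadjusted p under 0.05, 1 by DESeq2 and 0 by limma-trend. None of the 2 other LOB-domain genes passed either, with 0 at an unadjusted p under 0.05 and 0 by DESeq2 or limma-trend. Of the 3 HD-ZIP III and ta-siRNA genes none passed, with 1 at an unadjusted p under 0.05, 1 by DESeq2 and 0 by limma-trend. Their median log2 fold changes were -0.03 for TCP, 0.87 for LOB-domain and 0.37 for HD-ZIP III and ta-siRNA genes, beside 0.01 for all expressed genes. The 13 other cell wall genes gave no call, with 2 at an unadjusted p under 0.05 and 0 by DESeq2 or limma-trend. Among 39 tested auxin genes 0 were higher and 1 was lower, the auxin response factor gene ARF11 of the abaxial markers, with 8 at an unadjusted p under 0.05, 4 by DESeq2 and 0 by limma-trend. The NAC, GRF and GIF, bHLH, MYB, lipid and cuticle, and cell cycle lists gave no call, with 1 of 11, 3 of 19, 3 of 27, 1 of 33, 0 of 3 and 1 of 10 tested genes at an unadjusted p under 0.05, while DESeq2 called 1 NAC and 1 MYB gene and limma-trend 0. Of all 17993 genes, DESeq2 called 195 between adaxial and abaxial side and limma-trend 0. No share of all genes at an unadjusted p under 0.05 is given for this comparison, so those list counts are a description. Relative to the center zone, where 12% of all genes were called in either direction, 5.61% higher and 6.38% lower, 1 TCP gene was higher and 1 lower in the adaxial libraries, 1 LOB-domain gene was higher, and 10 of the 19 tested GRF and GIF genes were higher and 0 lower. Calls higher and lower in that comparison numbered 0 and 1 for HD-ZIP III and ta-siRNA genes, 0 and 2 for NAC, 2 and 6 for auxin, 3 and 1 for bHLH, 5 and 4 for MYB, 1 and 0 for cell wall, 2 and 0 for lipid and cuticle, and 3 and 0 for cell cycle genes. LOB14, the LOB-domain gene that was higher, had 15.5 and 22.8 RPM in the adaxial libraries, against 5.0 and 2.1 RPM in the center zone (log2 fold change 2.62 ± 0.47, edgeR adjusted p = 0.00812). Unlike ial1, LOB14 had abaxial levels of 11.2 and 15.5 RPM that touched the adaxial ones.

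The 43 genes lay on all 10 chromosomes, with 7 of them on chromosome 10, 16.3% beside 6.50% of expressed genes. Neighbours within 100 kb of each other formed 3 pairs, 6.98 per 100 genes. The same thresholds applied to the center zone and to the abaxial side gave 567 and 27 genes, with 6.88 and 0 pairs per 100 genes. These rates were not tested against each other. On chromosome 3, gst20 and GRMZM2G447632 were 25.5 kb apart on the same strand, with 3 annotated genes between them. Of these, GRMZM2G055905 had 81.8 and 62.7 RPM in adaxial cells, 73.6 and 73.7 RPM in the center zone and 80.1 and 87.3 RPM in the abaxial libraries, so that the profile of the pair was not shared by the whole stretch. On chromosome 5, TAB2 and GRMZM2G512113 were 31.1 kb apart with no gene of the table between them. On chromosome 9, GRMZM2G114788 and AC189879.3_FG003 were 76.2 kb apart with 2 genes between them. GRMZM2G114788 had 27.0 and 28.8 RPM in adaxial cells, 2.6 and 2.3 RPM in the center zone and 2.0 and 3.7 RPM in the abaxial libraries.

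**Figure D5:**
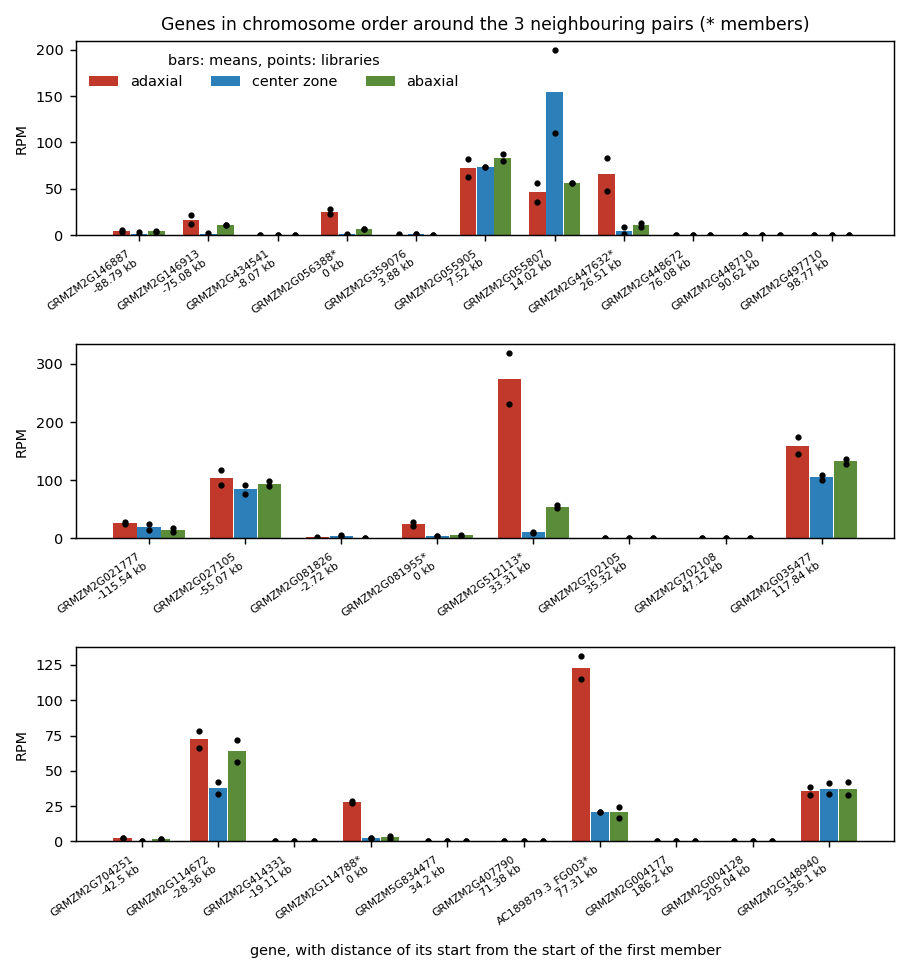
RPM of the genes in chromosome order around the 3 neighbouring pairs (members with an asterisk), with bars for the means and points for the libraries of the adaxial side, the center zone and the abaxial side, and distances in kb from the start of the first gene of each pair. No other plotted gene met the thresholds, and GRMZM2G055905, between gst20 and GRMZM2G447632, lies between 62.7 and 87.3 RPM in all 6 libraries.

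Against the 43 genes of the adaxial side, the same thresholds gave 567 genes for the center zone and 27 for the abaxial side. The median ratio was 4.26 in the adaxial set, 5.44 in the center zone set and 7.46 in the abaxial set. A ratio of at least 10 was reached by 1 adaxial gene (2.33%), 173 center zone genes (30.5%) and 12 abaxial genes (44.4%). These are descriptions of sets chosen on the same libraries, and the differences between them were not tested.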

How the data were processed

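RNA was extracted from laser-microdissected cells, amplified linearly and sequenced. According to the study's methods, low-quality bases (Phred score below 15) were removed before alignment to B73 RefGen_V3 with GSNAP (version not given in the sources used here). Reads that mapped uniquely, with up to 2 mismatches in 36 bp, were assigned to genes of annotation FGSv5b. The authors deposited these counts per gene and library, not pooled, as well as RPM rounded to 1 decimal. Uniquely mapped reads leave out near-identical gene copies, and 3′ RNA gives no level per gene length. A 3-count floor corresponds to 0.112 to 0.196 RPM, for counting error alone, as reads of amplified RNA are not independent.

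The 17993 genes reaching a mean of 2 RPM in one or more regions were tested on the deposited counts. A single fit of 3 groups over all 6 libraries was made with edgeR 4.0.16 (TMM, robust quasi-likelihood F test) in R 4.3.3. A check on simulated counts covered only center zone against abaxial side, with the same spread for all genes, and does not bear on the other comparisons. The biological coefficient of variation was 30.5%. A Benjamini-Hochberg adjusted p under 0.01 was the threshold. Alternatives were DESeq2 1.42.0, limma-trend (limma 3.58.1), other normalizations, filters and thresholds, a block for the replicate number, fits of 2 groups, leaving out each library in turn, and other thresholds and pseudocounts for the choice of genes.

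The genes, lists and tests were chosen with earlier results of these data known. Of the 39656 IDs, 18775 matched the RefSeq gene table of Zm-B73-REFERENCE-NAM-5.0, 2691 with a symbol, and lists were matched by symbol alone. From the set, those named are the genes with a symbol, the 10 highest adaxial means, the 10 largest and 3 smallest ratios, the 3 lowest levels, the genes called between center zone and abaxial side, and those just outside the thresholds. GRMZM2G045243, GRMZM2G303244, GRMZM2G004131 and GRMZM2G055905 were named after their values were seen. Promoter and protein sequences were not analysed here.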

Additional observations from a re-analysis of the deposited data

How the results depend on the processing

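Of the 43 genes, 4 were called between center zone and abaxial side, beside 10.6% of all genes. The number was 13 with DESeq2 (26.9% of all genes), 14 at an adjusted p under 0.05 (29.6%) and 2 with limma-trend (10.9%). It was 2 in a fit of only these groups (6.99%) and 2 in a fit of these 4 libraries with their own filter (6.98%). That last fit was an alternative chosen after seeing the data. Leaving out single libraries changed the number along with the share of all genes, as described above. No called gene changed direction. With the ratio set to 2 there were 94 genes in place of 43, with 5 there were 14, with group means 111, and leaving out single libraries gave 43 to 105. TMM-scaled CPM kept all 43 among 49. A pseudocount of 5 RPM lowered the median log2 ratio to 1.69 over the abaxial side and to 2.09 over the center zone, and leaving out single libraries gave 2.04 (without adaxial replicate 2) to 2.35 and 2.79 to 3.33.

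Over all genes, the calls between adaxial and abaxial side, 13, were 195 with DESeq2, 49 without a filter, 44 at an adjusted p under 0.05, 75 in a fit of only these groups, and 0 with limma-trend (935 at an unadjusted p under 0.05). Leaving out single libraries gave 0 to 64, with 0 without adaxial replicate 1, adaxial replicate 2 or abaxial replicate 2, where 1883, 700 and 591 had an unadjusted p under 0.05 in edgeR. The 2157 calls between adaxial side and center zone were 5125, 5694 at an adjusted p under 0.05, and 1067 in the fit of 2 groups, and leaving out single libraries gave 207 to 3814. The 1915 between center zone and abaxial side were 4847, 5321 and 1258 in the same order, and 217 (without abaxial replicate 1) to 3477 (without center zone replicate 1).

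The labels do not pair the libraries by replicate number, and the deviations of same-numbered libraries correlated at 0.19 between adaxial and abaxial side, 0.02 between adaxial side and center zone, and -0.06 between center zone and abaxial side. With the replicate number as a block, the calls were 0 between adaxial and abaxial side (866 at an unadjusted p under 0.05) and 991 between adaxial side and center zone. Between center zone and abaxial side they were 953, 5.3% of all genes, with 2 of the 43 genes among them. With 2 libraries per group, few degrees of freedom limit the calls, and genes near 1 RPM rest on few reads.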
